A study of Mus musculus with 24 samples.

Results

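The difference that the L2d13 genotype made in mouse liver was measured separately in 2 sets of libraries, and the difference between those 2 differences is described here gene by gene. All 24 liver RNA-seq libraries of the series enter it. In each library's description the genotype is followed by a 2 or a 4, and this digit defines set 2 and set 4, with 12 libraries each; the labels do not say what the digit stands for. Set 2 holds 6 libraries labelled L2 13 (written L2d13 below) and 6 labelled wild type (WT), and so does set 4. All 4 groups are liver of C57BL/6 mice. L2d13 stands for overexpression of L2 delta13, and no promoter, vector, age, sex or hour of collection is given in the labels. The running numbers in the descriptions form a separate block for each of the 4 groups, so that genotype and set cannot be told apart from whatever those numbers follow. The labels do not say that each library is a separate animal, and p-values measure the spread between these libraries, which may be technical.

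The quantity is (set 4 L2d13 minus set 4 WT) minus (set 2 L2d13 minus set 2 WT), on the scale of log2(FPKM + 1), where FPKM counts fragments relative to transcript length in kilobases and to all mapped fragments of the library. A value above 0 means that L2d13 stood higher against its own WT in set 4 than in set 2. The same fit gave the genotype difference within each set and the difference between the sets within each genotype. A gene was called where limma's p, adjusted by Benjamini-Hochberg over the 10532 genes tested, was under 0.05. "Rose" and "fell" are used only of called genes, and errors after a log2 difference are standard errors (SE) of the fit.

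As background, many of the genes below belong to a pair of well known liver programmes. In the circadian clock, the activators BMAL1 (gene Arntl), CLOCK and NPAS2 drive E-box genes through the letters CACGTG. Among these are the repressors PER and CRY, the repressors REV-ERB alpha and beta (Nr1d1 and Nr1d2), and the output factor DBP. REV-ERB proteins in turn repress Arntl, Npas2, Cry1 and Nfil3. In the unfolded protein response of the endoplasmic reticulum (ER), the sensors IRE1 (gene Ern1), ATF6 and PERK respond to misfolded protein, and ATF6 and XBP1 raise chaperones such as BiP (gene Hspa5). The liver, which secretes most plasma proteins, carries a heavy load through this compartment.

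The overexpressed gene was checked first. Gm21451, annotated as an unprocessed pseudogene copy of Loxl2 (chr14:69390854-69480287, plus strand; GRCm38 with the GENCODE M21 annotation, as for all gene positions below), had 40.63 to 222.7 FPKM (median 172.2) in set 2 L2d13 and 106.4 to 266.2 (median 206.7) in set 4 L2d13. The WT libraries had 0.03 to 1.27 in set 2 and 0.03 to 0.24 in set 4, so the genotypes did not overlap in either set. The log2 differences of 6.68 ± 0.31 and 7.34 ± 0.31 differed by 0.65 ± 0.44 between the sets, which limma did not call (adjusted p = 0.815). Loxl2 itself (chr14:69609068-69695834), a secreted enzyme that crosslinks collagen, was higher in L2d13 by 0.57 ± 0.12 in set 2 and 0.58 ± 0.12 in set 4, with a difference between the sets of 0.01 ± 0.17. It lay low, between 0.83 and 2.26 FPKM in L2d13 and between 0.36 and 1.26 in WT. Loxl2 passed the filter of 1 FPKM in at least 6 libraries mostly through L2d13. Reads can be split between gene copies, and the part of Gm21451 in this value was not tested. The labels do not spell out L2, and the link to these genes is drawn from that name.

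Some libraries stand apart. FPKM summed to 550300 to 723000 per library and sequencing depth is unknown from these values. All 10 hepatocyte markers were present in every group, with summed levels of 32940 to 67900. Set 2 L2d13 replicate 3 and set 2 WT replicate 6 were the libraries least like their own group. Replicate 3 had the lowest hepatocyte sum and the highest sums in its group for 18 endothelial markers (482.2, next 230.8), 18 stellate cell and fibroblast markers (543.4, next 273.1), 9 erythroid markers (3569, next 1413) and 18 T, natural killer and B cell markers (42.13, next 13.21). Set 2 L2d13 replicate 1 had 164.3 for 9 measured exocrine pancreas markers, against at most 8.51 in any other library; at least 5 of the 9 were at 0 in every library of each of the other 3 groups. In 6 libraries (replicate 3 and replicate 6 just named and set 4 WT replicates 9 to 12) 1 fragment was worth more FPKM than in the other 18. Results that move without these libraries are given with and without them. In bulk tissue, fewer cells of a type and less RNA per cell cannot be told apart.

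Most genes had the same sign of difference in both sets. In set 2, 1588 genes were called (15.1%), with 1364 rises (13.0%) and 224 falls (2.13%). In set 4, 1403 were called (13.3%), with 1090 rises (10.3%) and 313 falls (2.97%). Set 4 had 220 rises and 299 falls without the 6 libraries of higher FPKM per fragment, 4 of which are set 4 WT. The balance of rises and falls depended on the scaling: with median-of-ratios scaling it was 373 to 390 in set 2 and 631 to 639 in set 4, and the median over all genes moved by -0.15 and -0.08. Of these calls, 651 genes were called in the same direction in both sets (6.18%; 539 rises, 5.12%, and 112 falls, 1.06%), which is 41.0% of the set 2 calls and 46.4% of the set 4 calls. This count was 353 with median-of-ratios scaling and 233 without the 6 libraries. Over all tested genes, 72.0% had the same sign in both sets, and the differences of the sets had a Pearson r of 0.638 across genes, which are not independent replicates. This share was computed without rescaling, where both medians lay above 0 (0.16 and 0.08). With median-of-ratios scaling the medians were 0.007 and -0.005, and the share was not computed. The 651 shared genes had median absolute log2 differences of 0.54 in set 2 and 0.53 in set 4.

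By the test of the difference itself, 16 genes (0.152%) differed between the sets, 3 above 0 (0.0285%) and 13 below 0 (0.123%). Median-of-ratios scaling gave 7 above and 12 below 0, and quantile normalization 6 and 12. The count was 67 without the 6 libraries (5 above and 62 below 0), 68 where a term marked those libraries, and 341 with array weights. At an unadjusted p under 0.05 there were 747 (7.09%), 166 above (1.58%) and 581 below 0 (5.52%); with median-of-ratios scaling it was 368 above and 451 below 0. Between the 2 L2d13 groups 638 genes were called (6.06%), 58 higher (0.551%) and 580 lower in set 4 (5.51%); median-of-ratios scaling gave 105 higher and 196 lower, and quantile normalization 136 and 209. Between the 2 WT groups 20 were called (0.19%), 9 higher (0.0855%) and 11 lower in set 4 (0.104%). By their calls within sets, the 16 fall into 3 genes with opposite responses (0.0285%: Parp16, Creb3l2, Piga; 9 without the 6 libraries, 16 where a term marked them and 47 with array weights), 8 with a response in set 4 only (0.076%; among them Nr1d1, Nr1d2, Nfil3, Cry1, Wfdc2, Slc45a3, Lonrf3) and 5 with a response in set 2 only (0.0475%: Septin11, Sdf2l1, Manf, Ackr2, Slc13a3). Neither set had a call in 8195 genes (77.8%). A further 1670 genes (15.9%) were called in 1 set without a called difference between the sets; 929 of them were called in set 2 and 741 in set 4, and 172 had opposite signs in the sets. For those genes a response limited to 1 set was not shown. The median SE of the difference between sets was 0.21, against 0.15 within a set, and the smallest difference called was 0.61. The median over all tested genes was 0.16 in set 2, 0.08 in set 4 and -0.08 for the difference between sets.

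**Figure D1:**
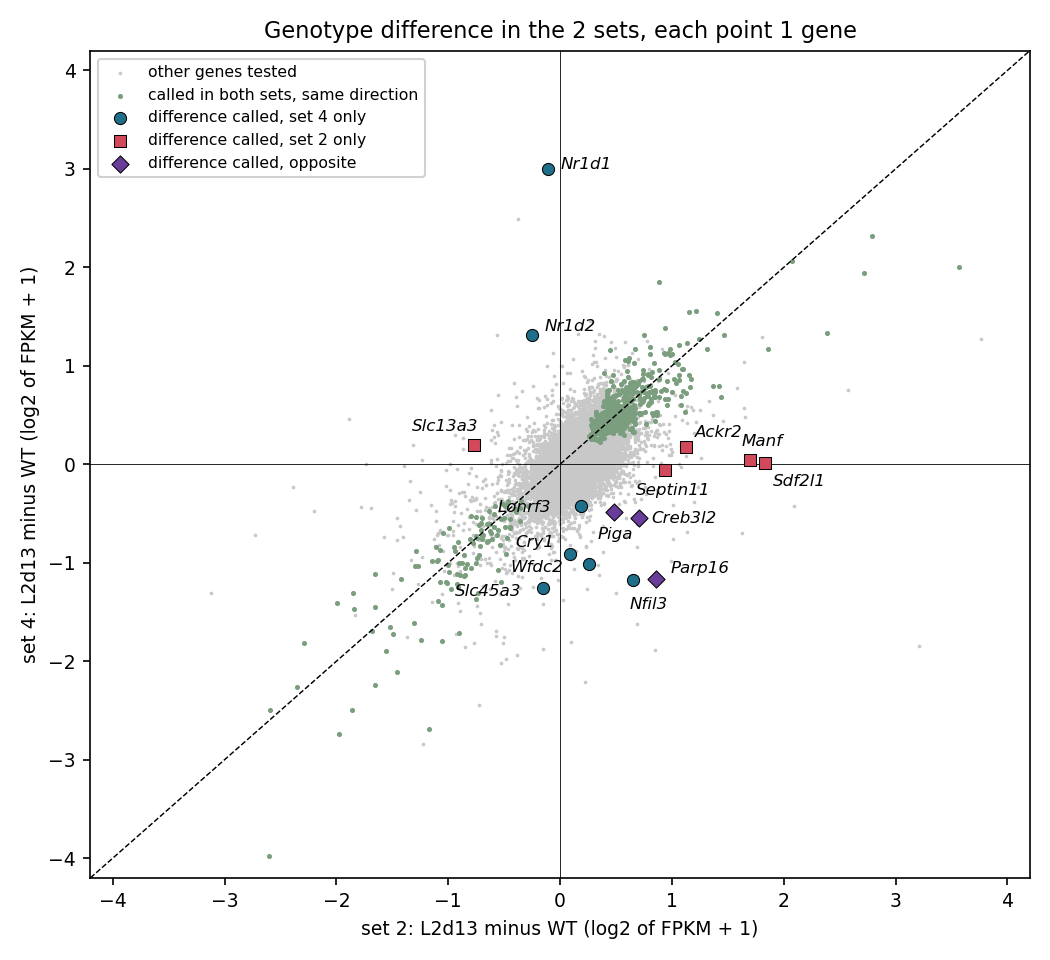
Each point is 1 tested gene, with its log2 difference of L2d13 minus WT in set 2 on the horizontal axis and in set 4 on the vertical axis, both as log2 of FPKM + 1; colours mark the response classes. The 651 genes called alike lie in the upper right and lower left, the named genes called for the difference lie off the diagonal with Nr1d1 at the top, and Gm21451 at 6.68 and 7.34 lies beyond the axes and is not drawn.

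The 16 calls were not equally stable across the 37 alternative settings. Among the genes named, Parp16, Creb3l2 and Septin11 were called in all 37, Nr1d1 and Nr1d2 in 36, Nfil3 in 33 and Piga in 30. The other 8 named were called in 13 to 20 settings, always with the same sign. Leaving out 1 library at a time gave 6 to 19 called genes, with 6 without set 4 L2d13 replicate 8 or without set 2 WT replicate 5. In 15 of the 16 genes the 2 L2d13 groups differed from each other by the same test, and in 2 (Parp16 and Slc13a3) the 2 WT groups did.

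The clearest set 4 response was in the core clock. Both REV-ERB genes rose in set 4 L2d13, and Nfil3 and Cry1 fell there, while none of these 4 was called in set 2. Of 22 listed clock genes, 19 passed the filter on low values, and Per3, Bhlhe41 and Wee1 did not. In set 2, 1 member rose and 2 fell, and in set 4, 5 rose and 9 fell. Over all genes tested, 13.0% rose and 2.13% fell in set 2, and 10.3% rose and 2.97% fell in set 4. The difference between sets was called in 2 members above 0 and 3 below 0, against 0.0285% and 0.123% of all tested genes. Its median of -0.02 turned to 0.06 with median-of-ratios scaling and 0.07 with quantile normalization. The list and its members were chosen with earlier results of these data known.

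Short stretches of clock promoters are shown first, since the E-box that the loop works through can be read in them. They come from RefSeq's 300-base windows around gene starts (GRCm38.p6), are written 5′ to 3′ on the gene's strand, and the capitals mark CACGTG. The stretches are chr3:95882247-95882364 (minus strand, Ciart), chr10:85185089-85185134 (minus strand, Cry1) and chr11:69098763-69098808 (plus strand, Per1).
Ciart: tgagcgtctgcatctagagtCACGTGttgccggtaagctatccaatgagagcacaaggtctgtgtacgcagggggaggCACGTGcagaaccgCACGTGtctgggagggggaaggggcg
Cry1: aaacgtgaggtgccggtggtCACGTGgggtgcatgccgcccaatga
Per1: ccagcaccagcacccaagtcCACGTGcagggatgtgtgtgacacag
Ciart, a repressor of the loop, carries 3 copies. CACGTG reads the same on both strands and was present in 7.15% of all 32851 windows and in 12% of the 8500 tested genes with a window. It was present in 4 of the 16 clock members with a window (Ciart, Cry1, Per1 and Tef) and in 4 of the 14 genes called for the difference that had one (Cry1, Lonrf3, Septin11 and Slc13a3). The D-box TTATGTAA was found on either strand in 0.938% of windows and in no clock member. The REV-ERB element, AANT followed directly by AGGTCA, was found on either strand in 0.219% of windows, in 1 of the 16 clock members (Arntl) and in none of the 14 called genes. These are letter matches in short windows. The 3 printed genes did not respond alike: only Cry1 differed between the sets, Per1 fell in both and Ciart was not called in either.

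Nr1d1 (chr11:98767932-98775333, minus strand) encodes REV-ERB alpha. In set 4 it lay between 1.66 and 5.0 FPKM (median 2.04) in WT and between 16.1 and 42.77 (median 28.21) in L2d13. In set 2 it lay between 2.47 and 22.8 (median 4.145) in WT and between 3.20 and 7.43 (median 5.605) in L2d13. The genotypes were fully apart in set 4 and overlapped in set 2, where WT replicates 5 (22.8) and 3 (12.37) were the highest. The log2 difference was 3.0 ± 0.36 in set 4 (adjusted p = 1.28e-05) and -0.11 ± 0.36 in set 2 (adjusted p = 0.872), and the difference between the sets was 3.11 ± 0.51 (adjusted p = 0.00541), the largest of the 16. Without the 6 libraries of higher FPKM per fragment it was 2.89 with an adjusted p of 0.0636, and without set 2 WT replicate 5 it was 2.76 (0.00302). The exons of Nr1d1 share 263 bases (8.55% of its exon bases) with Thra on the opposite strand, and the sources used here do not say whether counting used strand. Thra, the thyroid hormone receptor alpha gene, was not called for the difference between the sets (-0.27).

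Nr1d2 (chr14:18204054-18239127, minus strand), the gene of REV-ERB beta, had the same pattern at lower amplitude. Set 4 WT lay between 2.37 and 3.91 FPKM (median 3.195) and set 4 L2d13 between 6.92 and 12.35 (median 9.10). Set 2 WT lay between 3.04 and 8.89 (median 4.23) and set 2 L2d13 between 3.12 and 5.31 (median 3.585). Again only the set 4 genotypes did not overlap. Nr1d2 rose by 1.31 ± 0.19 in set 4, with -0.25 ± 0.19 in set 2, and the sets differed by 1.56 ± 0.27 (adjusted p = 0.00982), or 1.55 without the 6 libraries named above (adjusted p = 0.0541).

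Nfil3 and Cry1, which REV-ERB proteins are known to repress, moved the other way. Nfil3 (chr13:52967209-52981073), a repressor that opposes DBP at D-boxes, lay between 9.16 and 22.04 FPKM (median 18.62) in set 4 L2d13 and between 24.79 and 59.82 (median 34.26) in set 4 WT. In set 2 it lay between 35.13 and 61.29 (median 35.8) in L2d13 and between 16.08 and 39.79 (median 27.53) in WT. The genotypes did not overlap in set 4 and overlapped in set 2. It fell by 1.17 ± 0.24 in set 4, the value in set 2 was 0.66 ± 0.24 (adjusted p = 0.0628), and the difference between the sets was -1.83 ± 0.34 (adjusted p = 0.0212). Without set 2 WT replicate 5 the adjusted p was 0.0514.

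Cry1 (chr10:85131700-85185064), a core repressor of CLOCK and BMAL1, lay between 2.89 and 5.71 FPKM (median 3.53) in set 4 L2d13. The other 3 groups had medians of 7.02 (set 2 WT), 7.645 (set 2 L2d13) and 7.955 (set 4 WT), and only set 2 WT, with a lowest value of 4.97, reached into the range of set 4 L2d13. Cry1 fell by 0.91 ± 0.14 in set 4, the value in set 2 was 0.09 ± 0.14, and the sets differed by -0.99 ± 0.20 (adjusted p = 0.0368). This call held in 14 of 37 settings, and it was lost, for example, with median-of-ratios scaling (adjusted p = 0.0775).

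**Figure D2:**
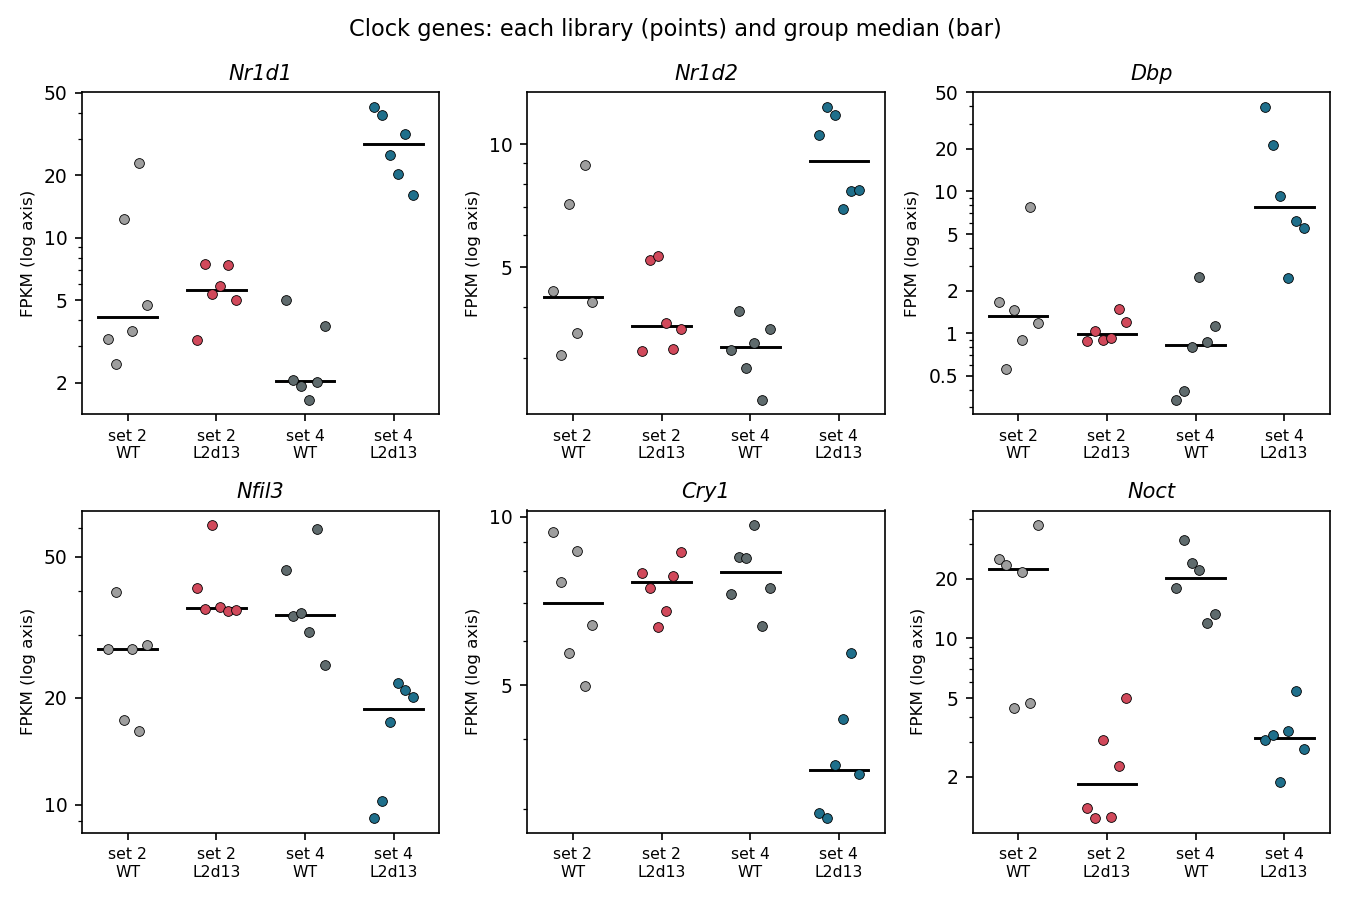
FPKM on a log axis of clock genes in every library of the 4 groups, with 1 point for each library and a line at the group's median. For Nr1d1 and Nr1d2 the 6 set 4 L2d13 points stand above the set 4 WT points (medians 28.21 against 2.04 and 9.10 against 3.195), and for Nfil3 and Cry1 they stand below them; Noct is lower in L2d13 in both sets.

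Dbp, Npas2 and Tef leaned the same way without a called difference between the sets. Dbp, the output factor, lay between 2.44 and 39.61 FPKM (median 7.725) in set 4 L2d13 and between 0.34 and 2.5 (median 0.83) in set 4 WT. In set 2 it lay between 0.88 and 1.49 (median 0.98) in L2d13 and between 0.56 and 7.75 (median 1.32) in WT. Set 4 L2d13 replicates 7 (39.61) and 8 (21.19) were the highest, and these 2 libraries also had the highest Nr1d1 and the lowest Nfil3 of their group. Dbp rose by 2.49 ± 0.44 in set 4 and the sets differed by 2.87 ± 0.62, just outside the threshold (adjusted p = 0.0603), and the set 4 genotypes overlapped narrowly. Npas2, the partner of BMAL1, fell by 0.63 ± 0.16 in set 4 (difference between the sets -1.01 ± 0.23, adjusted p = 0.0762). Tef, a relative of Dbp, rose by 0.80 ± 0.24 in set 4 (difference 1.04, adjusted p = 0.352). Usp2, Bhlhe40 and Rora fell in set 4 by 1.02, 0.96 and 0.41, and their differences between the sets were -0.40, -0.28 and -0.20. Their set 2 values were below 0 as well, though not called, so a response limited to set 4 was not shown for them.

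Noct, Per1 and Cry2 were called in the same direction in both sets. Noct, a clock-controlled phosphatase of the dinucleotides NADP and NADPH, had a median of 22.49 FPKM in set 2 WT and 1.835 in set 2 L2d13, and of 20.07 and 3.155 in set 4. It fell by 2.35 ± 0.39 and 2.27 ± 0.39, and the difference between the sets was 0.09 ± 0.56. The genotypes overlapped in set 2 and not in set 4. The negative-arm gene Per1 fell by 1.27 ± 0.33 in set 2 and 1.0 ± 0.33 in set 4, with a difference of 0.24 ± 0.46. Cry2, the other cryptochrome, rose by 0.48 ± 0.15 and 0.70 ± 0.15, with a difference of 0.22 ± 0.21. The activator Clock (0.13 and 0.12) was not called in either set, nor were Per2, Hlf and Ciart. The activator Arntl was not called either, but its values had opposite signs (0.36 ± 0.16 and -0.28 ± 0.16). It lay between 9.09 and 10.13 FPKM in set 2 L2d13 and between 2.78 and 8.05 in set 4 L2d13, and the difference between the sets was -0.64 ± 0.23 (adjusted p = 0.456). The clock list thus held genes of each kind: 5 with a called difference, 3 called alike in both sets, and 6 called in set 4 with no called difference. The labels give no hour of collection, and whether it differed between groups was not tested.

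**Figure D3:**
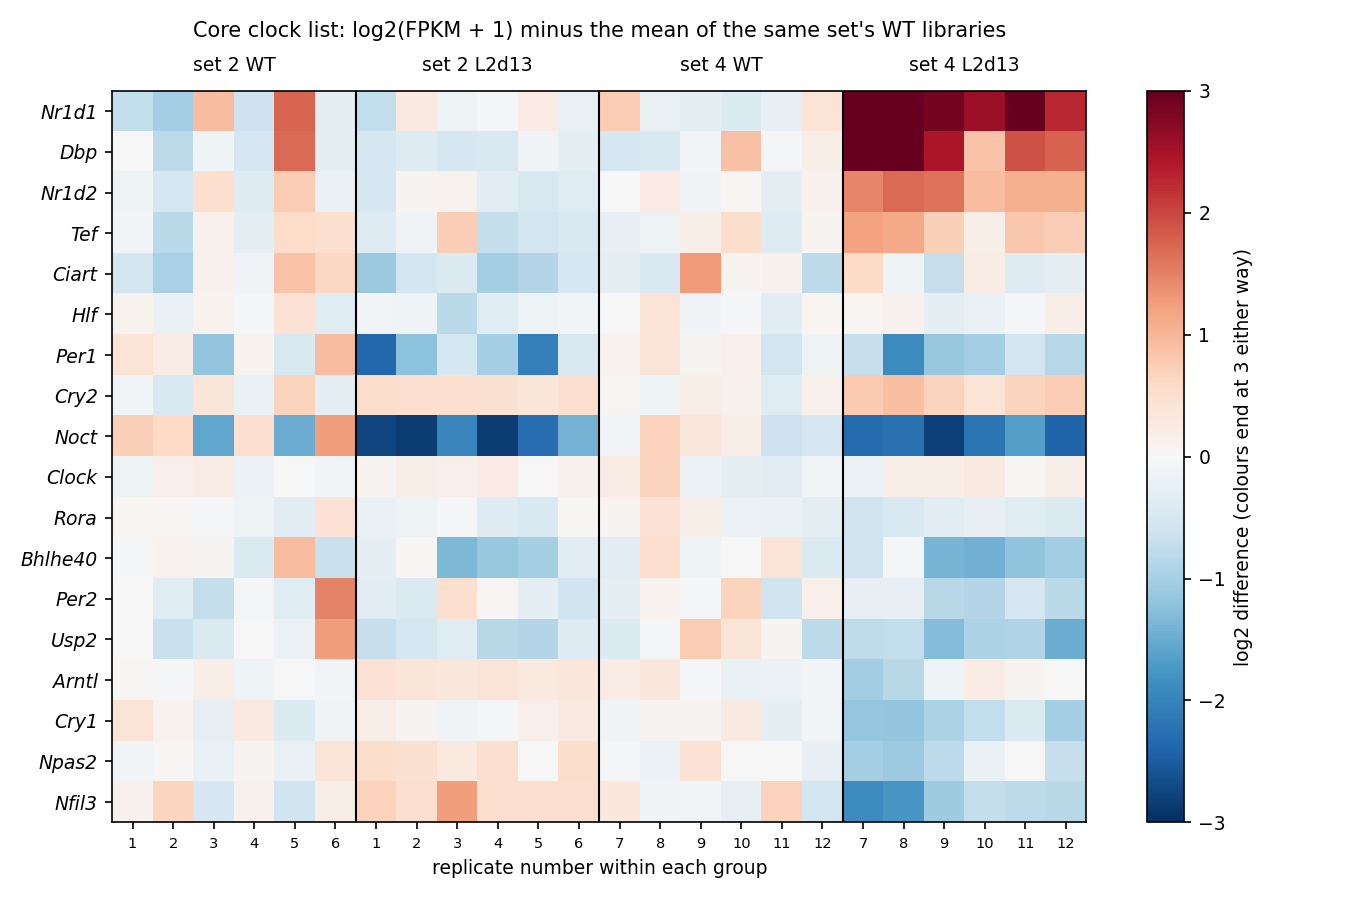
Each row is a tested member of the core clock list, except 1 not reported here, and each column a library, coloured by its log2(FPKM + 1) minus the mean of the WT libraries of its own set, with colours ending at 3 either way. Nr1d1, Nr1d2 and Dbp are high in the set 4 L2d13 columns and not in the set 2 L2d13 columns, whereas Noct and Per1 are low in both.

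The clearest set 2 response was in ER chaperones and degradation factors. Of 35 list members, all tested, 18 rose and none fell in set 2, whereas 4 rose and 1 fell in set 4. Of all tested genes, 13.0% rose and 2.13% fell in set 2, and 10.3% rose and 2.97% fell in set 4. The median log2 difference was 0.61 in set 2 and 0.23 in set 4, against 0.16 and 0.08 over all tested genes. For the difference between the sets, 2 members were called, both below 0 (Sdf2l1 and Manf), as were 0.123% of all tested genes. An unadjusted p under 0.05 was found in 18, all below 0, against 5.52% of all tested genes below 0. The difference lay below 0 in 32 of 35 members, against 6639 of 10532 genes tested. Between the 2 L2d13 groups, 16 members were called lower in set 4, as were 5.51% of all tested genes, and 9 with median-of-ratios scaling. Between the 2 WT groups none was called and the median difference was -0.02.

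Promoters of ER genes are shown because many share a defined element. ATF6 and XBP1 are known to act through the ER stress response element, which reads CCAAT, 9 bases of any kind, and CCACG. The capitals mark that element, from CCAAT to CCACG, in stretches of RefSeq's windows (GRCm38.p6), all written on the plus strand, which is the gene's strand: chr2:34772000-34772068 (Hspa5), chr15:88819495-88819563 (Creld2), chr14:118937802-118937870 (Dnajc3) and chr12:17266466-17266534 (Pdia6). In Creld2 it is on the opposite strand and so is seen as its reverse complement.
Hspa5: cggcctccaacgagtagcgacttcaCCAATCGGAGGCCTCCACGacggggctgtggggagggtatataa
Creld2: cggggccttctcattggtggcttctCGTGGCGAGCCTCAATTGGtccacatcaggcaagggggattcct
Dnajc3: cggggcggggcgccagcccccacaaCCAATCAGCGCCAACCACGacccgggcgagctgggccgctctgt
Pdia6: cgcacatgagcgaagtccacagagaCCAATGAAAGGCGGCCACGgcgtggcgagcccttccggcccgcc
Searched on both strands, the element was in 0.119% of all windows and in 16 of the 8500 tested genes with a window (0.188%), and 10 of those 16 are members of the ER list (Calr, Canx, Creld2, Derl3, Dnajc3, Ero1b, Hsp90b1, Hspa5, Pdia6 and Syvn1). Among the 16 holders, 11 rose in set 2 and 2 in set 4, against 1087 and 881 of the 8500. All 16 had a difference between the sets below 0, as did 63.2% of the 8500. In 7 its unadjusted p was under 0.05, against 474 of the 8500 below 0. Since 10 of the 16 are ER list members, these counts are not separate from those of the list. None of the 14 genes called for the difference that had a window held the element in it.

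Sdf2l1 (chr16:17130138-17132383), a partner of BiP in ER chaperone complexes, lay between 60.67 and 95.84 FPKM (median 73.56) in set 2 L2d13 and between 11.94 and 40.87 (median 16.33) in set 2 WT. In set 4 it lay between 17.73 and 35.85 (median 26.06) in L2d13 and between 17.05 and 45.7 (median 23.56) in WT. Set 2 L2d13 stood above every other library. Sdf2l1 rose by 1.83 ± 0.25 in set 2, the value in set 4 was 0.02 ± 0.25, and the sets differed by -1.81 ± 0.36 (adjusted p = 0.0368).

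Manf (chr9:106838312-106891979), a secreted factor that resides in the ER and is induced by ER stress, lay between 115.7 and 183.8 FPKM (median 130.4) in set 2 L2d13 and between 27.77 and 66.46 (median 38.88) in set 2 WT. In set 4 it lay between 27.8 and 64.98 (median 57.42) in L2d13 and between 30.95 and 79.77 (median 48.26) in WT. Here too set 2 L2d13 did not overlap any other group. Its exons share 166 bases with 4930524O07Rik and 146 with Dcaf1 on the opposite strand. Manf rose by 1.70 ± 0.24 in set 2, the value in set 4 was 0.04 ± 0.24, and the sets differed by -1.66 ± 0.34 (adjusted p = 0.0368). Without set 2 L2d13 replicate 1, the library with pancreas markers, the differences were -1.83 for Sdf2l1 and -1.68 for Manf, with adjusted p of 0.0720 and 0.0723. Their rises in set 2 were 1.84 and 1.73 without it, and the list then had 17 rises in set 2 and 4 in set 4.

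Hspa5, the gene of the chaperone BiP, lay between 718.1 and 1413 FPKM (median 1000) in set 2 L2d13 and between 185.3 and 523.1 (median 358.4) in set 2 WT, without overlap. In set 4 it lay between 317.7 and 624.9 (median 435.2) in L2d13 and between 237.7 and 612.4 (median 278.4) in WT, with overlap. Hspa5 rose by 1.65 ± 0.25 in set 2 and the value in set 4 was 0.48 ± 0.25 (adjusted p = 0.199), and the sets differed by -1.17 ± 0.35, which was not called (adjusted p = 0.308). The degradation factor Derl3 rose by 3.77 ± 0.44 in set 2, where L2d13 replicate 3 stood at 167.3 FPKM and the other 5 between 34.93 and 57.59. Its difference between the sets was -2.49 ± 0.63 (adjusted p = 0.157).

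Further members rose in set 2 and were not called in set 4, without a called difference between sets. The ER-resident Creld2 had log2 differences of 1.69 in set 2 and 0.24 in set 4, the disulfide isomerase Pdia4 of 1.45 and 0.44, the ubiquitin ligase Syvn1 of 1.0 and -0.54, and its partner Sel1l of 0.78 and 0.03. The smallest adjusted p of their differences was 0.166. Herpud1, a membrane factor of the same degradation complex, went another way: it lay between 75.25 and 89.37 FPKM in set 4 L2d13 and between 206.6 and 490.2 in set 4 WT. It fell by 1.94 ± 0.26 in set 4, the value in set 2 was -0.38 ± 0.26, and the sets differed by -1.55 ± 0.36 (adjusted p = 0.110). The genes of the sensors Ern1 and Atf6, and Xbp1, were not called in either set.

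In both sets 4 members rose: the chaperones Hsp90b1 (1.42 and 0.80) and Calr (0.97 and 0.66), the degradation factor Derl1 (0.64 and 0.58) and the disulfide isomerase P4hb (0.45 and 0.41). Calr, the lectin chaperone calreticulin, had a median of 295.5 FPKM in set 2 WT and 609.1 in set 2 L2d13, and of 301.3 and 495.4 in set 4, with no overlap in either set. Counts in the ER list depended on the libraries used. Without the 6 libraries of higher FPKM per fragment, 22 members rose in set 2 and 1 rose and 3 fell in set 4, with 7 differences called. Without set 2 L2d13 replicate 3 and set 2 WT replicate 6, 18 rose in set 2 and 10 in set 4, and no difference was called at an adjusted p under 0.05. With median-of-ratios scaling 13 rose in set 2, and 2 rose and 4 fell in set 4.

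**Figure D4:**
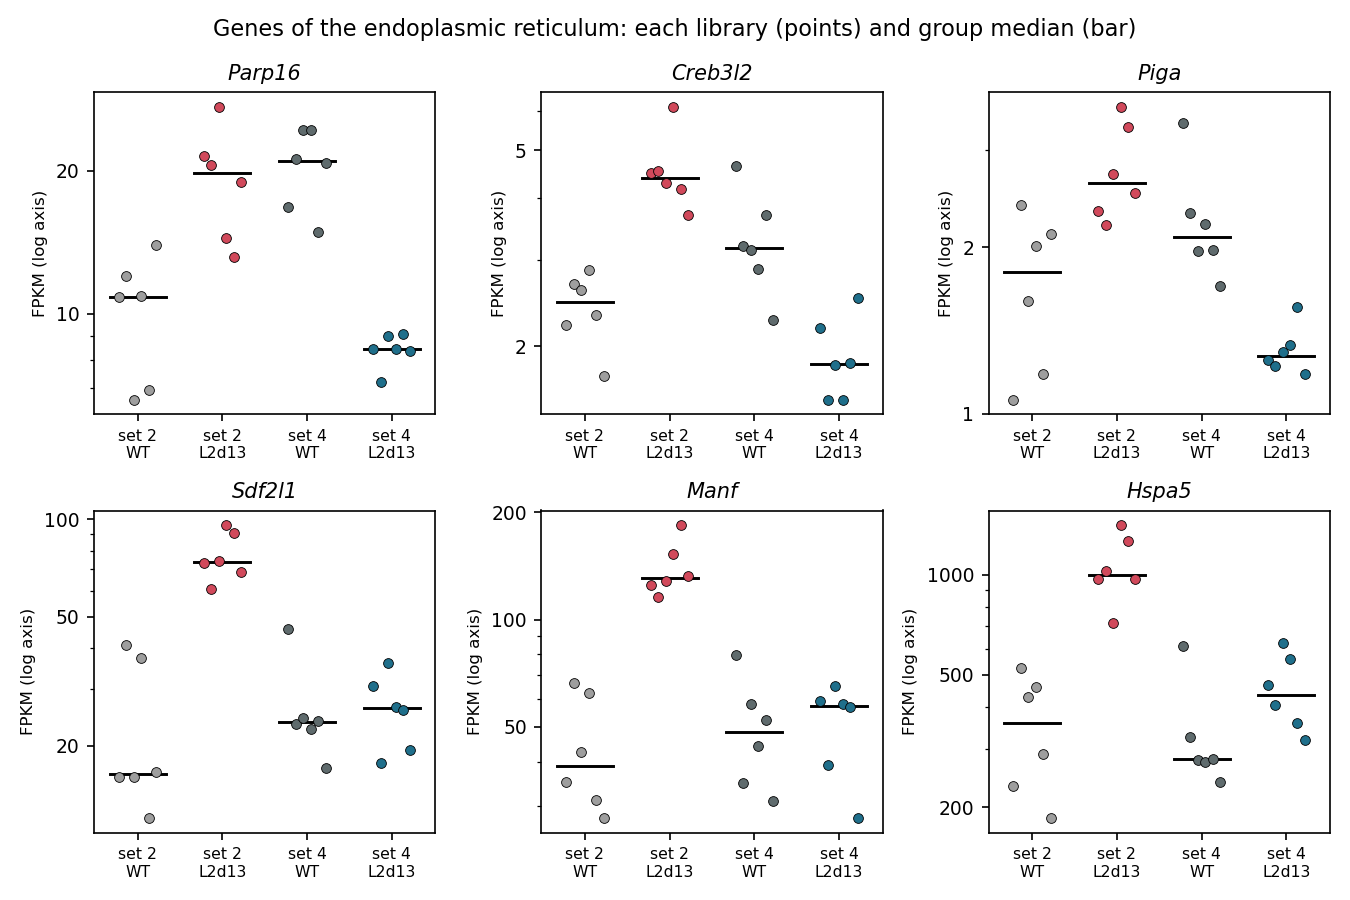
FPKM on a log axis of ER genes in every library of the 4 groups, with 1 point for each library and a line at the group's median. The set 2 L2d13 points of Sdf2l1, Manf and Hspa5 stand above all set 2 WT points, and the set 4 groups overlap; Parp16 and Creb3l2 move in opposite directions in the sets.

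Opposite responses were found in Parp16, Creb3l2 and Piga, whose products all sit in the ER membrane. Parp16 (chr9:65195353-65239224), an ADP-ribosyltransferase anchored in the ER that acts on the stress sensors, lay between 13.17 and 27.25 FPKM (median 19.73) in set 2 L2d13 and between 6.61 and 13.95 (median 10.88) in set 2 WT. In set 4 the order was turned, with 7.21 to 9.07 (median 8.44) in L2d13 and 14.88 to 24.36 (median 20.96) in WT. The groups were fully apart in set 4 and overlapped narrowly in set 2. Parp16 rose by 0.86 ± 0.17 in set 2 (adjusted p = 0.00204) and fell by 1.16 ± 0.17 in set 4 (adjusted p = 0.000157), and the sets differed by -2.02 ± 0.24 (adjusted p = 0.000142), the smallest p of all genes. Both genotypes differed between the sets: WT stood 0.95 higher in set 4 (adjusted p = 0.013), and the L2d13 difference was -1.07.

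Creb3l2 (chr6:37327255-37442146), a membrane-bound transcription factor of the ER that raises secretory pathway genes, lay between 3.69 and 6.13 FPKM (median 4.40) in set 2 L2d13 and between 1.74 and 2.86 (median 2.46) in set 2 WT. In set 4 it lay between 1.56 and 2.51 (median 1.84) in L2d13 and between 2.26 and 4.65 (median 3.165) in WT. The genotypes did not overlap in set 2 and overlapped in set 4. It rose by 0.70 ± 0.12 in set 2 and fell by 0.55 ± 0.12 in set 4, with a difference of -1.25 ± 0.18 (adjusted p = 0.00113).

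Piga (chrX:164419787-164433916) encodes the catalytic subunit of the first step of glycosylphosphatidylinositol anchor synthesis. It lay between 2.19 and 3.59 FPKM (median 2.61) in set 2 L2d13 and between 1.06 and 2.38 (median 1.805) in set 2 WT, and between 1.18 and 1.56 (median 1.27) in set 4 L2d13 and between 1.70 and 3.36 (median 2.09) in set 4 WT. The genotypes overlapped in set 2 and not in set 4. It rose by 0.48 ± 0.13 and fell by 0.48 ± 0.13, and the sets differed by -0.96 ± 0.18 (adjusted p = 0.0249). The low levels near the filter of 1 FPKM make its size on this scale depend on the added 1.

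Septin11 (chr5:93093437-93176447), a cytoskeletal GTPase, was among the most stable set 2 responses. It lay between 4.18 and 6.01 FPKM (median 4.825) in set 2 L2d13, while the other 3 groups together lay between 1.79 and 3.0. Its rise in set 2 was 0.94 ± 0.11 (adjusted p = 6.1e-06), the value in set 4 was -0.06 ± 0.11, and the sets differed by -1.0 ± 0.15 (adjusted p = 0.00202). Ackr2 (chr9:121898355-121911074), a receptor that scavenges chemokines, lay between 2.81 and 6.39 (median 3.60) in set 2 L2d13 and between 0.89 and 1.61 (median 1.325) in set 2 WT, without overlap. In set 4 the medians were 2.375 in L2d13 and 2.045 in WT, and the groups overlapped. It rose by 1.13 ± 0.13 in set 2, the value in set 4 was 0.17 ± 0.13, and the difference was -0.96 ± 0.19 (adjusted p = 0.0368).

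Slc13a3 (chr2:165405028-165473230), a sodium-coupled carrier of dicarboxylates, was the only gene with a fall in set 2 and a called difference. It lay between 1.31 and 3.30 FPKM (median 2.175) in set 2 L2d13 and between 3.40 and 5.17 (median 4.485) in set 2 WT, without overlap. In set 4 both genotypes stood low, with medians of 2.075 in L2d13 and 1.61 in WT. It fell by 0.77 ± 0.14 in set 2, the value in set 4 was 0.19 ± 0.14, and the sets differed by 0.96 ± 0.20 (adjusted p = 0.0417). The WT groups differed by -1.0 (adjusted p = 0.000620) and the L2d13 groups by -0.04, which was not called.

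The other set 4 responses were falls. Slc45a3 (chr1:131962967-131982969), a sugar carrier of the membrane whose exons share 481 bases with Gm29103 on the same strand, lay between 12.37 and 20.74 FPKM (median 17.7) in set 4 L2d13 and between 27.04 and 57.9 (median 42.42) in set 4 WT, without overlap; the set 2 medians were 27.86 and 31.21. It fell by 1.26 ± 0.16 in set 4, with -0.15 ± 0.16 in set 2 and a difference of -1.10 ± 0.22 (adjusted p = 0.0368). Wfdc2 (chr2:164562413-164568510), a secreted whey acidic protein, had medians of 1.65 in set 4 L2d13 and 4.555 in set 4 WT, without overlap, and of 3.44 and 3.045 in set 2. It fell by 1.01 ± 0.18 in set 4 and differed between the sets by -1.27 ± 0.26 (adjusted p = 0.0368). Lonrf3 (chrX:36328353-36362341), a RING finger protein, lay between 0.50 and 0.95 in set 4 L2d13 and between 0.99 and 1.66 in set 4 WT, close to the filter, and differed between the sets by -0.61 ± 0.13 (adjusted p = 0.0417).

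The genes with the largest shared response give the other side of the comparison. Apoa4, a lipoprotein component that rises with hepatic fat, had medians of 204.7 FPKM in set 2 WT and 2925 in set 2 L2d13, and of 169.4 and 649.9 in set 4. It rose by 3.57 ± 0.38 and 2.0 ± 0.38, and the difference of -1.57 ± 0.54 was not called (adjusted p = 0.411). Cidec, a lipid droplet protein, rose by 2.72 and 1.94, Cgref1 by 2.79 and 2.32, and the steroid hydroxylase Cyp17a1 by 2.08 and 2.07. Tsku, a secreted proteoglycan, fell by 2.59 and 2.5, and Bglap3 by 2.60 and 3.98. None of these 6 was called for the difference between the sets.

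**Figure D5:**
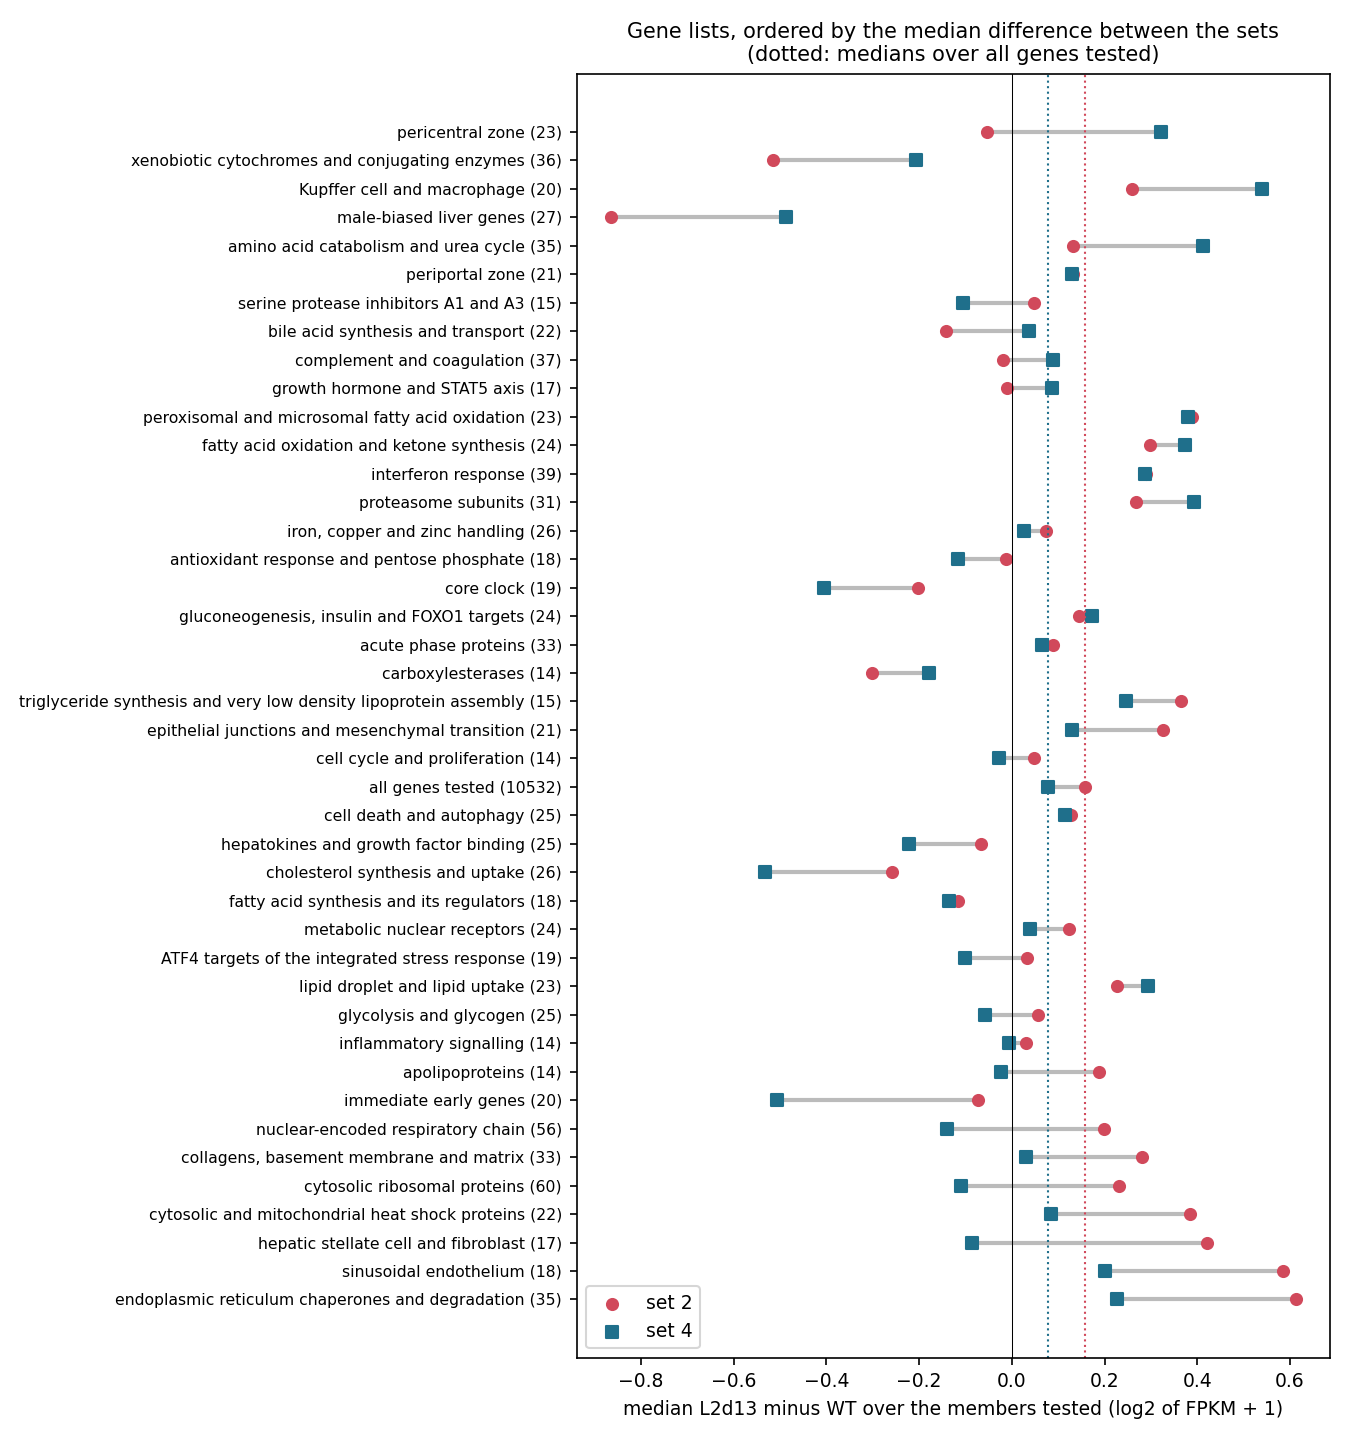
Median log2 difference of L2d13 minus WT over the tested members of each gene list with 14 or more tested members, in set 2 and in set 4, ordered by the median difference between the sets; dotted lines mark the medians over all tested genes (0.16 and 0.08). ER chaperones (0.61 in set 2 against 0.23 in set 4) and sinusoidal endothelium markers (0.59 against 0.20) stand high in set 2. Pericentral genes stand higher in set 4 (0.32 against -0.05).

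Among the other lists, the genes of the pericentral zone, the hepatocytes around the central vein that respond to Wnt signals, leaned towards set 4. Their median of set 4 minus set 2 was -0.32 within WT and 0.09 within L2d13, against -0.08 and -0.15 over all tested genes. Of 23 tested members, 1 rose and 7 fell in set 2, and 7 rose and 2 fell in set 4. Of all tested genes, 13.0% rose and 2.13% fell in set 2, and 10.3% rose and 2.97% fell in set 4. An unadjusted p under 0.05 was found for a difference above 0 in 11 members (1.58% of all genes) and below 0 in 1 (5.52% of all). None was called after adjustment. Tbx3, a Wnt target, had medians of 4.525 FPKM in set 4 WT and 16.79 in set 4 L2d13, without overlap, and rose by 1.46 ± 0.23 there. Its value in set 2 was 0.26 ± 0.23, and the sets differed by 1.19 ± 0.32 (adjusted p = 0.222). Cyp2e1, the ethanol-oxidising cytochrome, rose by 0.58 in set 4 and had -0.19 in set 2. Znrf3, a feedback inhibitor of Wnt receptors, fell by 0.22 in set 2 and had 0.19 in set 4. Cyp1a2 (-1.29 and -0.88) and Rgn (-1.0 and -0.64) fell in both sets. Without the 6 libraries of higher FPKM per fragment 2 rose and none fell in set 4. The median of the list in set 2 changed sign with scaling of every library to the same sum (0.04).

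For xenobiotic enzymes no difference between the sets was called. Of 36 tested members, 18 fell and 1 rose in set 2, and 8 fell and 2 rose in set 4. Of all tested genes, 2.13% fell and 13.0% rose in set 2, and 2.97% fell and 10.3% rose in set 4. All 8 members that fell in set 4 also fell in set 2. The falls were 20 in set 2 and 1 in set 4 without the 6 libraries of higher FPKM per fragment. The difference between the sets had an unadjusted p under 0.05 in 9, all above 0, against 1.58% of all tested genes above 0. Cyp2c29 had medians of 826.7 FPKM in set 2 WT and 272.3 in set 2 L2d13, and fell by 1.4 ± 0.28 there, with overlap of the groups. Its value in set 4 was -0.02 ± 0.28, with a difference of 1.38 ± 0.40 (adjusted p = 0.273). The glutathione transferases Gsta3 (-0.94 and -0.88) and Gstm3 (-1.84 and -1.47) fell in both. Por, the reductase that feeds electrons to the cytochromes, rose in both, by 0.45 ± 0.13 and 1.16 ± 0.13.

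Male-biased liver genes, which growth hormone pulses maintain, had no called difference between the sets. In 4 members its unadjusted p was under 0.05, all above 0, against 1.58% of all tested genes above 0. Of 27 tested, 11 fell in set 2 and 3 in set 4, 2 of them in both (Mup3, -0.50 and -0.55, and Mup21, -1.09 and -1.39). Falls were called in 2.13% of all tested genes in set 2 and in 2.97% in set 4. Mup11 fell by 1.73 in set 2 and had -0.00052 in set 4, Mup15 had -2.73 and -0.72, and Mup20 had -0.87 and 0.15. Major urinary protein genes are near-identical copies and reads can be split among them, so their summed share of all FPKM is the safer value. It was 7.83% ± 2.03 (SD, n = 6) in set 2 L2d13 and 16.5% ± 4.16 in set 2 WT (exact two-sided permutation p = 0.002165, adjusted for 2 sets 0.004329). In set 4 it was 17.47% ± 4.57 and 22.6% ± 8.0 (exact permutation p = 0.2078). The difference between the sets in this share was not tested.

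No matrix gene was called for the difference between the sets. Of 33 tested collagens, basement membrane and matrix genes, 11 rose in set 2 (5 with median-of-ratios scaling), and 2 rose and 1 fell in set 4. Of all 10532 tested genes, 13.0% rose in set 2 (373 genes with that scaling), and 10.3% rose and 2.97% fell in set 4. Sparc, a collagen-binding matrix protein, lay between 17.64 and 45.8 FPKM (median 22.66) in set 2 L2d13 and had a median of 16.09 in set 2 WT, and of 10.04 and 9.705 in set 4. It rose by 0.66 ± 0.17 in set 2 and had -0.01 ± 0.17 in set 4 (adjusted p of the difference 0.462). The basement membrane genes Lamb1 (0.34 and -0.09) and Nid1 (0.63 and 0.10), and Postn (0.46 and 0.03), had like values. Lamb1 lay between 0.54 and 2.48 FPKM over all libraries, so its size on this scale depends on the added 1. It passed the filter of 1 FPKM mostly through set 2 L2d13, so its set 2 value is not independent of the filter. Markers of other cell types moved with this group. The 18 stellate cell and fibroblast markers summed to 226.4 to 543.4 in set 2 L2d13, 164.1 to 291.4 in set 2 WT, 123.2 to 181.4 in set 4 L2d13 and 135.4 to 188.4 in set 4 WT, with none at 0 in a whole group. Of 17 tested, 5 rose in set 2, and Lrat, the defining retinol enzyme of stellate cells, rose by 0.75 ± 0.12. The 18 endothelial markers summed to 189.8 to 482.2, 85.32 to 209.6, 84.41 to 175.2 and 59.88 to 183.3 in the same order, and 4 rose in set 2. The difference between the sets lay below 0 in all 18 endothelial and all 17 tested stellate cell markers, with medians of -0.42 and -0.38. None of these differences was called. Over all genes tested, 6639 of 10532 lay below 0, with a median of -0.08. Without set 2 L2d13 replicate 3, 6 matrix genes, 2 stellate and 3 endothelial markers rose in set 2. The part of these cells in the matrix values was not tested.

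Of 22 tested heat shock proteins, 4 rose (13.0% of all tested genes did) and none fell in set 2, and none rose and 4 fell (2.97% of all did) in set 4, and no difference between the sets was called; with median-of-ratios scaling 1 rose in set 2 and 4 fell in set 4. Hspa1b, the inducible chaperone, had a median of 2.405 FPKM in set 4 L2d13 and 17.66 in set 4 WT, without overlap, and fell by 2.21 ± 0.56. In set 2 its medians were 17.63 and 17.96, and the difference between the sets was -2.44 ± 0.80 (adjusted p = 0.363). Hspe1, a mitochondrial chaperonin, rose by 0.84 in set 2 and had 0.19 in set 4. Of 20 tested immediate early genes, none was called in set 2, and 1 rose (10.3% of all did) and 5 fell (2.97% of all did) in set 4. Set 4 WT replicate 11 stood apart from its group: the summed level of the 23 listed immediate early genes was 758.7 there (next 518.4, median 347.5), that of 20 inflammatory signalling genes 380.3 (next 180.1) and that of 35 acute phase proteins 33450 (next 22520). Without it, 3 immediate early genes fell in set 4 and 1 rose in set 2. Without set 4 WT replicate 9, 4 fell in set 4. With all 6 libraries of higher FPKM per fragment left out, both of these among them, 3 fell in set 4 and 3 rose in set 2, and 1 difference between the sets was called, below 0. Egr1 fell by 1.62 ± 0.39 in set 4, where WT lay between 4.33 and 47.96 FPKM (median 8.52) and L2d13 between 2.17 and 5.0 (median 3.24), with overlap. Its WT groups differed by 2.03 (adjusted p = 0.023), and the difference between the sets was -2.31 ± 0.56 (adjusted p = 0.128). The set 4 value of Egr1 without the 6 libraries was -0.87 (adjusted p = 0.0727). Fos fell by 0.92 in set 4 (-0.82 without set 4 WT replicate 11, adjusted p = 0.0504) and had 0.11 in set 2. It lay between 0.37 and 0.64 FPKM in set 4 L2d13 and between 0.49 and 5.14 in set 4 WT. Fos passed the filter of 1 FPKM mostly through set 4 WT, so its fall there is not independent of the filter. Ccn1 rose by 0.64 in set 4 and had -0.06 in set 2.

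Proteasome subunits, interferon response genes, amino acid catabolism and cholesterol synthesis had calls in the same direction in both sets. Of 31 proteasome subunits, 11 rose in set 2 and 18 in set 4, 10 of them in both, with medians of 0.27 and 0.39. Of all tested genes, 13.0% rose in set 2, 10.3% in set 4 and 5.12% in both, with medians of 0.16 and 0.08. The ATPase subunit Psmc3 rose by 0.39 ± 0.08 and 0.50 ± 0.08, and Psmc1, Psmc4 and Psmd6 also rose in both. These counts followed the scaling and the libraries: with median-of-ratios scaling 1 rose in set 2 and 14 in set 4, and without the 6 libraries of higher FPKM per fragment 14 and 1. Of 39 interferon response genes, 9 rose in set 2 and 16 in set 4, 7 in both; with median-of-ratios scaling 1 and 12 rose, and without the 6 libraries 9 and 4. Oasl1, an antiviral gene, had medians of 2.635 and 4.985 FPKM in set 2 and of 1.4 and 7.525 in set 4, in WT and L2d13, without overlap in either, and rose by 0.89 ± 0.22 and 1.85 ± 0.22. Tap1 rose by 0.70 and 0.52 and Ifit2 by 0.36 and 0.35, and Bst2 fell by 0.56 in set 4 with 0.01 in set 2 (adjusted p of the difference 0.592). Ifit2 lay between 0.22 and 0.89 FPKM in set 4. It passed the filter of 1 FPKM only through set 2, mostly L2d13, so its rise in set 2 is not independent of the filter. The 20 macrophage markers, a cell type that responds to interferon, summed to 274.8 to 594, 233 to 439.3, 137.1 to 446.4 and 98.02 to 320.3 in set 2 L2d13, set 2 WT, set 4 L2d13 and set 4 WT, and 1 of them rose, in set 4. Their part in the interferon values was not tested.

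Of 35 tested amino acid and urea cycle enzymes, 6 rose and 2 fell in set 2, where 13.0% of all tested genes rose and 2.13% fell, and 10 rose in set 4, where 10.3% of all rose. In both sets 5 rose. With median-of-ratios scaling 2 and 3 rose, and the median in set 2 turned from 0.13 to -0.05. Mat1a, which makes the methyl donor of the liver, rose by 0.96 ± 0.20 and 1.13 ± 0.20, and Asl, of the urea cycle, by 0.84 and 0.75. Of 26 cholesterol synthesis and uptake genes, 7 fell in set 2 and 10 in set 4, 5 in both, and none rose. Of all tested genes, 2.13% fell in set 2, 2.97% in set 4 and 1.06% in both. Nsdhl fell by 1.09 and 0.97, and Fdps by 0.85 and 1.05. Without the 6 libraries, 4 of which are set 4 WT, 11 fell in set 2 and none was called in set 4. The medians of the difference between the sets were 0.02 (proteasome), 0.03 (interferon), 0.19 (amino acids) and -0.10 (cholesterol), against -0.08 over all tested genes.

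The 60 cytosolic ribosomal protein genes showed a small shift in 1 direction. All 60 had a difference between the sets below 0, with a median of -0.32, yet none reached an unadjusted p under 0.05. Of all 10532 tested genes, 6639 lay below 0, with a median of -0.08. The nuclear-encoded respiratory chain leaned the same way, with 52 of 56 below 0 and a median of -0.305. Unlike the ribosomal protein genes, 7 of these 56 had an unadjusted p under 0.05, all below 0, against 5.52% of all tested genes below 0. The median of the ribosomal protein genes was 0.23 in set 2 and -0.11 in set 4. Of the 60, 4 rose in set 2, where 13.0% of all tested genes rose. Set 2 L2d13 replicate 3 had a summed level of 36060 for the ribosomal protein genes, against 21010 for the next library of its group. Without it the median in set 2 was 0.06 and that of the difference -0.18.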

How the data were processed

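RNA from liver was sequenced on the BGISEQ-500. The authors deposited FPKM values per gene and library; the submitters' processing notes name HISAT, Bowtie2, RSEM and GRCm38.p5, with no versions. Sequencing depth and the strand used in counting are not given in the sources used here. Of 18171 genes, 10532 had at least 1 FPKM in 6 or more of the 24 libraries. Values were taken as log2(FPKM + 1) and fitted in all 4 groups together with limma 3.58.1 (R 4.3.3; empirical Bayes with a trend), and p-values were adjusted by Benjamini-Hochberg over all genes tested, with a threshold of 0.05. The procedure was tested on simulated data. A single share was tested by exact permutation. The 37 alternative settings included 24 that each left out 1 library, and 1 was chosen after seeing the data.

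The gene lists (53) and the comparison were chosen with earlier results of these data known. Genes were named by rule: the 8 largest differences each way among opposite responses, the 5 largest rises and falls among responses in 1 set, the 4 most shared rises and falls, the 10 smallest adjusted p of the difference between sets, up to 4 members of each list by that p, up to 3 members called in both sets, and Loxl2 and Gm21451. Predicted gene names were otherwise passed over. The core clock members beyond these, and Hspa5, Ern1, Xbp1, Atf6, Eif2ak3, Canx, Creld2, Dnajc3, Pdia6, Syvn1, Ero1b, Thra, Pdia4 and Sel1l, were named after their values were seen.
Some genes in the lists and counts are not reported here.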

Additional observations from a re-analysis of the deposited data

Results flagged for a closer look

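Genes whose genotype difference differed between the sets by limma's test of that difference are given by its log2 value, set 4 minus set 2. Above 0 were Nr1d1 (3.11), Nr1d2 (1.56) and Slc13a3 (0.96). Below 0 were Parp16 (-2.02), Nfil3 (-1.83), Sdf2l1 (-1.81), Manf (-1.66), Wfdc2 (-1.27), Creb3l2 (-1.25), Slc45a3 (-1.10), Septin11 (-1.0), Cry1 (-0.99), Piga (-0.96), Ackr2 (-0.96) and Lonrf3 (-0.61).

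In 6 of 76 groups of 6 libraries tested by Dixon's criterion, 1 library stood far from the other 5; chance marks about 1 in 20 groups. These were Sdf2l1 in set 4 WT replicate 7 (45.7 FPKM), Nfil3 in set 2 L2d13 replicate 3 (61.29 FPKM), Parp16 in set 4 L2d13 replicate 8 (7.21 FPKM), Septin11 in set 4 L2d13 replicate 9 (3.0 FPKM), Slc13a3 in set 4 WT replicate 7 (2.36 FPKM) and Gm21451 in set 2 WT replicate 5 (1.27 FPKM).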

How the results depend on the processing

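The sequence of values below is set 2, set 4, difference between sets, WT between sets, L2d13 between sets, same direction, opposite, set 4 only and set 2 only, with 1588, 1403, 16, 20, 638, 651, 3, 8 and 5 genes as reported; settings with fewer values name them. Array weights gave 3775, 5289, 341, 1468, 2262, 2458, 47, 144 and 138 genes. Without the 6 libraries of higher FPKM per fragment, counts were 5.2e+02 in set 4 (220 rises and 299 falls), 67 for the difference (10 of the 16 among them), 1 in WT, 1007 in L2d13, 233 same, 9 opposite, 24 set 4 only and 34 set 2 only. With a term for that property of the libraries they were 2568 in set 2, 915 in set 4, 68 for the difference (15 of the 16), 1117 in L2d13, and 16, 19 and 32 in the last 3 classes. Median-of-ratios scaling gave 763 in set 2, 301 in L2d13 and 353 same, and quantile normalization 827, 345 and 363. Scaling every library to the same sum gave 5 opposite and 4 set 4 only, and no filter on low values gave 6 for the difference, 3 set 4 only and 1 set 2 only. Without the 2 set 2 libraries least like their groups, a choice made after seeing the data, 2624 were called in set 4 and 5 were opposite. The cause of these moves was not tested, beyond the fewer libraries or the other genes tested.

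With the replicate number as a replicate block, 807 genes were called in set 2, 679 in set 4, 9 for the difference, 283 same, 4 set 4 only and 3 set 2 only. The numbers share no label beyond the digit. Of 12 same-number pairs, 4 correlated over 0.1 and 1 correlated best with its own number. These correlations gave no sign that the numbers pair the samples but, with 6 libraries per group, cannot exclude it. The block could not give the comparisons between sets within a genotype.

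Leaving out 1 library at a time gave 972 to 1824 in set 2, 833 to 2434 in set 4, 6 to 19 for the difference, 7 to 82 in WT, 294 to 883 in L2d13, 453 to 931 same, 3 to 5 opposite, 3 to 11 set 4 only and 1 to 6 set 2 only. Set 2 fell to 972 without set 2 WT replicate 4. Set 4 was 833, 921, 842 and 2434 without set 4 WT replicates 9, 10, 11 and 8, and 910 without set 4 L2d13 replicate 9. The difference had 6 genes without set 4 L2d13 replicate 8 or set 2 WT replicate 5, 7 without set 4 L2d13 replicate 7 or 12, 8 without set 2 L2d13 replicate 1 or 4 or set 4 WT replicate 9, and 9 without set 2 L2d13 replicate 2, set 2 WT replicate 3 or set 4 WT replicate 10. The WT count was 82 without set 4 WT replicate 8, 7, 8, 10 and 12 without set 2 WT replicates 3, 2, 5 and 6, 11 without set 4 WT replicate 7 or 10, and 9 without replicate 11. The L2d13 count was 366 and 328 without set 2 L2d13 replicates 1 and 3, and 294, 373, 309 and 368 without set 4 L2d13 replicates 7, 8, 10 and 12. Among the genes named, 1 turned: Mup3 in set 2 had 0.0076 with quantile normalization (adjusted p = 0.987). Depth is unknown, so the precision of low genes cannot be given.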
